A study of Homo sapiens with 12 samples.

Results

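The genes described here are 10 members of the MYC, MXD and MondoA network: MYC, MAX, MXD1, MXI1, MNT, MLX, MLXIP (which encodes MondoA), TXNIP, ARRDC3 and ARRDC4. They were chosen by name, and the reads of all linear transcript rows of each gene were added up. All 10 were found among 43613 genes in the table, and all 10 passed the filter on low counts, which left 19986 genes for testing. RNA was sequenced from PC3, an androgen-independent human cell line from a bone metastasis of prostate cancer, labelled wild type, in 4 groups: PBS controls (BLANK), cells exposed to silver nanoparticles (AgNPs), cells exposed to DOC, and cells exposed to both (COM). Each group had 3 libraries. DOC is not spelled out in the labels, doses and exposure times are not given there, and whether the libraries came from separate cultures is not said. The p-values therefore measure only the spread between these libraries, which may be technical, in 1 cell line.

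MYC is a transcription factor that drives cell growth, and it binds DNA at E-box sequences only as a pair with MAX. MXD1, MXI1 and MNT also pair with MAX, occupy similar sequences and recruit SIN3 corepressors, so that they oppose MYC. MondoA pairs with MLX, a relative of MAX, and moves to the nucleus when glucose phosphates accumulate. There it activates TXNIP and ARRDC4, arrestin-domain proteins that limit glucose uptake.

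Linear counts totalled 10996446 to 22769479 per library and were lowest in COM and highest in BLANK, so depth moved with the groups, and its part in the results was not tested. BLANK replicate 1 and DOC replicate 1 differed more from the other libraries of their groups (chi-square per degree of freedom 3.45 to 4.76) than other pairs of libraries did (1.46 to 1.99). Results that changed without either are named below. The epithelial genes KRT8, KRT18, EPCAM and HOXB13 summed to 775 to 789 CPM (counts scaled to a common library size) in BLANK and 596 to 634 CPM in COM. HOXB13 carried most of this fall (373 ± 1.35 to 204 ± 7.92 CPM), KRT18 and EPCAM also fell, and KRT8 rose (161 ± 5.5 to 187 ± 10.8 CPM). Of 6 fibroblast markers the sum was 101 to 113 CPM in BLANK and 70.4 to 77.6 CPM in COM, mostly from COL1A2, while DCN and LUM were at 0 counts in BLANK. Of the 4 fibroblast markers tested, COL1A2 fell after COM (91.6 ± 5.76 to 52.1 ± 3.02 CPM), COL3A1 (0.683 ± 0.0993 to 1.33 ± 0.599 CPM) and PDGFRB (0.491 ± 0.0795 to 1.30 ± 0.209 CPM) rose, and COL1A1 did not pass. The 3 immune markers counted summed to 40.5 to 45.3 CPM in BLANK and 48.1 to 54.9 CPM in COM, nearly all from CD68, while PTPRC was at or near 0 in all groups. The part of these shifts in the results was not tested. The labels name only PC3, so these genes are read as levels within PC3 cultures. In such bulk samples, fewer cells with a transcript and less of it per cell cannot be told apart.

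Compared per transcript length (FPKM, fragments per kilobase of transcript, scaled to the reads of the library), MYC was the most abundant member in BLANK at 189 ± 6.51 FPKM (SD, n = 3). MAX followed at 39.7 ± 2.37, TXNIP at 27.3 ± 0.508 and MLXIP at 17.5 ± 0.252 FPKM. MLX at 13.7 ± 0.668 and MNT at 13.6 ± 0.346 FPKM did not differ beyond their spread. MXI1 (9.64 ± 0.0379) and ARRDC3 (9.27 ± 0.285) came next, and their libraries did not overlap. MXD1 at 1.77 ± 0.231 and ARRDC4 at 1.08 ± 0.16 FPKM were the lowest. The order was the same with RefSeq rows only, where MLX and MNT no longer overlapped.

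Against BLANK, MXD1, TXNIP and ARRDC3 rose and MYC fell in each treatment, and ARRDC4 rose after AgNPs and COM. After AgNPs 4 members rose and 3 fell, against 14.9% and 16% of all genes tested. After DOC 4 rose and 1 fell, against 7.16% and 9.81%. After COM 6 rose and 2 fell, against 25.1% and 24.5%. A gene was called at an edgeR quasi-likelihood p below 0.05 after Benjamini-Hochberg adjustment over all 19986 genes. The median log2 change of the 10 members was 0.09, 0.12 and 0.24 after AgNPs, DOC and COM, and that of all genes was 0.01, 0.00 and 0.03. The members are few and act in opposite directions, so their median describes no shared response. These 3 comparisons share the BLANK libraries. In either direction, 7 members were called after AgNPs, 5 after DOC and 8 after COM, against 30.9%, 17% and 49.6% of all genes.

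Libraries that do not overlap in CPM give a second count. Between AgNPs and BLANK, 8 members did not overlap (42.5% of all genes), 5 of them higher (21.3%) and 3 lower (21.2%). Between DOC and BLANK, 5 did not overlap (31.5%), with 4 higher (14.7%) and 1 lower (16.8%). Between COM and BLANK, 9 did not overlap (56.8%), with 7 higher (29.4%) and 2 lower (27.4%). Between COM and AgNPs, 8 did not overlap (37%), with 7 higher (17.9%) and 1 lower (19.2%). Between COM and DOC, 9 did not overlap (45.2%), with 6 higher (22.5%) and 3 lower (22.7%). Statements below that groups did not overlap are read against these shares. No such share was computed for AgNPs against DOC, so statements below that include this pair have none beside them.

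**Figure D1:**
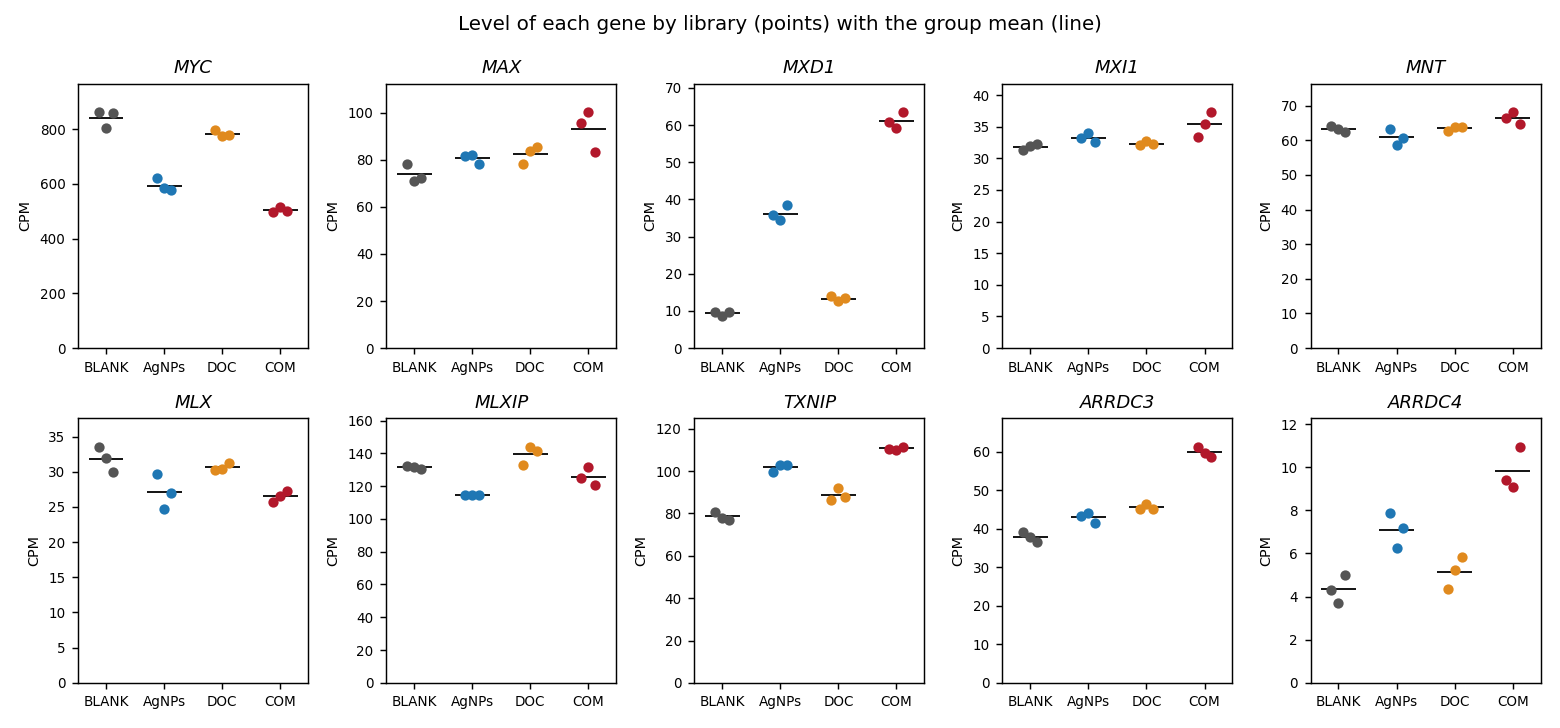
Level of each of the 10 genes in CPM (y axis from 0) in the 3 libraries of each group (points), with the group mean (line). MXD1 climbs from about 9 CPM in BLANK to about 61 CPM in COM while MYC falls from 841 to 505 CPM, and MXI1 and MNT stay nearly level.

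MYC (gene ID 4609, chromosome 8, 127735434 to 127742951, GRCh38) stood at 862, 804 and 858 CPM in BLANK replicates 1 to 3. It was at 622, 583 and 576 CPM after AgNPs, 795, 773 and 777 CPM after DOC, and 499, 514 and 502 CPM after COM. Every treated library was below every BLANK library, and the COM libraries were the lowest of all. MYC fell 1.42-fold after AgNPs (a log2 change of -0.50 with an SE of 0.03, n = 3 per group, adjusted p = 4.04e-16 with edgeR) and 1.67-fold after COM (-0.74 ± 0.03, adjusted p = 3.48e-21). After DOC the fall was 1.08-fold (-0.11 ± 0.03, adjusted p = 0.0105). That last call ended with RefSeq rows only (adjusted p = 0.0505), without BLANK replicate 1 (0.0783), BLANK replicate 3 (0.0673) or DOC replicate 2 (0.0553), and with limma-trend on FPKM (0.187). In COM, MYC was also below AgNPs (-0.23 ± 0.03, adjusted p = 5.78e-07) and below DOC (-0.63 ± 0.03, adjusted p = 5.46e-19). Of its counts, 83.2 ± 0.311% in BLANK and 84.6 ± 2.13% in COM lay on the transcript NM_002467.5, and nearly all others on NM_001354870.1.

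MAX, the obligate partner of MYC and of the MXD proteins (chromosome 14, 65006101 to 65102695), was at 78.4, 70.9 and 72.3 CPM in BLANK and at 81.7, 81.9 and 78.3 CPM after AgNPs. It was at 78.2, 83.7 and 85.4 CPM after DOC and at 95.6, 100.3 and 83.1 CPM after COM. Only the COM libraries all lay above the BLANK libraries. MAX rose after COM by 0.33 ± 0.05 (log2, adjusted p = 1.36e-05). After AgNPs it was at 0.13 ± 0.05 and did not pass (adjusted p = 0.0771), but passed without BLANK replicate 1 (0.0129), DOC replicate 1 (0.0499) or COM replicate 3 (0.0295) and when BLANK and AgNPs were fitted alone (0.0205). After DOC it passed at 0.16 ± 0.05 (adjusted p = 0.033), a call that ended without BLANK replicate 2 or 3, DOC replicate 2 or 3 or COM replicate 1, with DESeq2 and with limma-trend (adjusted p up to 0.166). Part of MAX lies over FNTB and CHURC1-FNTB, which had means of 314 and 377 counts against 1333 for MAX. MAX could thus include reads of these genes where strand was not used. Its counts were split between NM_145112.2 (45.9 ± 3.41% in BLANK, 40.5 ± 3.72% in COM) and NM_002382.4 (42.9 ± 1.77% and 47.3 ± 4.1%), which encode forms of MAX that differ by a short insert. The ranges of these shares in BLANK and COM overlapped.

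MXD1, the MAX partner known to rise when cells stop dividing and differentiate (gene ID 4084, chromosome 2, 69915109 to 69942945), changed most among the members. It was at 9.77, 8.64 and 9.58 CPM in BLANK, 35.8, 34.4 and 38.4 CPM after AgNPs, 13.9, 12.6 and 13.4 CPM after DOC, and 60.8, 59.1 and 63.5 CPM after COM. No group overlapped another. The rise was 3.88-fold after AgNPs (log2 1.96 ± 0.07, n = 3 per group, edgeR adjusted p = 1.77e-22), 1.42-fold after DOC (0.51 ± 0.08, adjusted p = 2.03e-05) and 6.55-fold after COM (2.71 ± 0.07, adjusted p = 6.68e-28). Added to AgNPs, DOC raised MXD1 by a further 0.76 ± 0.06 (adjusted p = 8.23e-12), and added to DOC, AgNPs raised it 4.59-fold (adjusted p = 2.45e-25). Between 98.0% and 99.9% of its counts, as group means, lay on the single transcript NM_002357.3.

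The other MAX-binding repressors among the members moved little. MXI1, also called MXD2 (chromosome 10, 110207605 to 110287365), was at 31.4, 31.9 and 32.2 CPM in BLANK and at 33.4, 35.5 and 37.3 CPM after COM, with AgNPs libraries between 32.6 and 33.9 CPM and DOC libraries between 32.1 and 32.7 CPM. It passed only after COM (0.15 ± 0.06, adjusted p = 0.0239), a call that ended without COM replicate 2 (0.0734) or 3 (0.171), with no filter (0.261), with DESeq2 (0.121) and in a fit of only those groups (0.0504). For AgNPs and DOC the 95% intervals of its log2 change ran from -0.05 to 0.17 and from -0.08 to 0.13. Its main transcript NM_130439.3 held 69.5 ± 5.78% of its counts in BLANK and 72.8 ± 7.74% in COM. MNT, which is thought to set the basal repression that MYC must overcome (chromosome 17, 2384073 to 2401060), was at 64.2, 63.3 and 62.4 CPM in BLANK and at 66.4, 68.1 and 64.8 CPM after COM. It did not pass against BLANK in any treatment, with log2 changes of -0.06 ± 0.04, 0.00 ± 0.04 and 0.07 ± 0.04 after AgNPs, DOC and COM. With RefSeq rows only, it passed after COM (0.14, adjusted p = 0.0145).

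The ratio of MYC to MXD1, both in FPKM, was 111, 117 and 96.0 in the BLANK libraries and 71.9, 76.99 and 67.7 in the DOC libraries. It was 21.8, 21.3 and 18.8 after AgNPs and 10.3, 10.4 and 9.92 after COM. The means were 108 ± 10.9 (SD, n = 3) in BLANK, 72.2 ± 4.68 in DOC, 20.6 ± 1.6 in AgNPs and 10.2 ± 0.238 in COM. The 4 groups did not overlap, and MYC remained the more abundant RNA of the pair in all 12 libraries. In COM, MXD1 reached 11.2 ± 0.23 FPKM, within the spread of MXI1 at 11.1 ± 0.47 FPKM. With RefSeq rows only, MXD1 was at 1.7 instead of 2.01 FPKM in BLANK replicate 3. In COM replicate 2 it was at 10.59 instead of 11.23 FPKM. The ratios and their SDs therefore depend on the rows summed, and the ratio was not computed with RefSeq rows only.

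**Figure D2:**
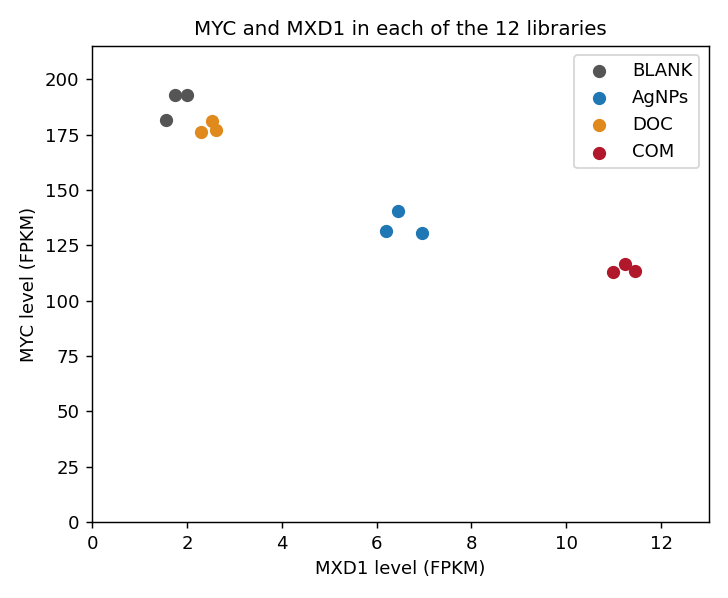
MYC level (y axis) against MXD1 level (x axis), both in FPKM on linear axes from 0, for each of the 12 libraries, coloured by group. The BLANK libraries sit at MYC near 189 and MXD1 near 1.77 FPKM, and the COM libraries at MYC near 114 and MXD1 near 11.2 FPKM.

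Other family genes outside the members were read from a fixed list of 6, of which 4 were tested. MXD4, another MAX-binding repressor, rose after AgNPs (0.66 ± 0.06, adjusted p = 2.28e-11), DOC (0.20 ± 0.06, adjusted p = 0.0136) and COM (0.99 ± 0.06, adjusted p = 1.22e-16), from 7.34 ± 0.524 FPKM in BLANK to 15.6 ± 0.284 FPKM in COM. The call after DOC ended without BLANK replicate 1 or 2 or DOC replicate 2 and with DESeq2. MXD3, the MXD family gene that is expressed in dividing cells, fell after AgNPs (-0.45 ± 0.14, adjusted p = 0.0102) and COM (-0.96 ± 0.15, adjusted p = 2.44e-06), from 3.97 ± 0.535 to 1.77 ± 0.0289 FPKM, and the call after AgNPs ended without BLANK replicate 2 or 3 and with DESeq2. MGA, a large MAX-binding repressor, and MYCL, a relative of MYC, did not pass in any of the 3 comparisons, with MGA between -0.04 and -0.01. MLXIPL, the relative of MondoA also known as ChREBP, was at or below 0.0933 FPKM as a group mean and was not tested.

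MLXIP (MondoA; gene ID 22877, chromosome 12, 122078756 to 122147344) was at 132, 132 and 131 CPM in BLANK and at 115, 115 and 114 CPM after AgNPs. It was at 133, 144 and 142 CPM after DOC and at 125, 131 and 121 CPM after COM. The AgNPs libraries lay below all others. It fell after AgNPs by 0.20 on the log2 scale (± 0.04, adjusted p = 4.54e-05). After COM it was at -0.07 ± 0.04 and did not pass (adjusted p = 0.148), but did with no filter (0.0155) and without COM replicate 2 (0.0398). After DOC it was at 0.09 ± 0.03 (adjusted p = 0.084), and passed without DOC replicate 1 (0.00642), with RefSeq rows only (0.0385) and with limma-trend (0.0206). COM lay above AgNPs (0.13 ± 0.04, adjusted p = 0.012), a call that ended without COM replicate 2 (0.138) and with no filter (0.0683), and below DOC (-0.15 ± 0.04, adjusted p = 0.0013).

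MLX, the partner of MondoA (chromosome 17, 42567100 to 42573203), was at 33.6, 31.9 and 29.9 CPM in BLANK, 29.7, 24.7 and 27.0 CPM after AgNPs, 30.3, 30.5 and 31.2 CPM after DOC, and 25.8, 26.5 and 27.3 CPM after COM. The AgNPs and COM libraries lay below BLANK without overlap. MLX fell after AgNPs (-0.23 ± 0.06, adjusted p = 0.00531) and COM (-0.26 ± 0.07, adjusted p = 0.00118), and was at -0.05 ± 0.06 after DOC (adjusted p = 0.598). The AgNPs call ended without BLANK replicate 1 (0.0523) or AgNPs replicate 2 (0.107). MLX overlaps PSMC3IP, so its counts could include reads of that gene where strand was not used. Its transcript shares scattered widely, with NM_198204.1 at 60.6 ± 5.07% in BLANK and 53.4 ± 9.24% in COM.

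TXNIP, which binds thioredoxin and drives glucose transporters from the cell surface (gene ID 10628, chromosome 1, 145992435 to 145996579), rose in each treatment. It was at 80.5, 78.1 and 77.1 CPM in BLANK, 99.7, 103 and 103 CPM after AgNPs, 86.3, 92.1 and 87.7 CPM after DOC, and 110.4, 110.2 and 112 CPM after COM. No 2 of the 4 groups overlapped. The changes were 1.30-fold after AgNPs (log2 0.37 ± 0.04, n = 3 per group, edgeR adjusted p = 4.17e-10), 1.13-fold after DOC (0.18 ± 0.04, adjusted p = 0.000789) and 1.41-fold after COM (0.49 ± 0.04, adjusted p = 1.82e-13). COM lay above AgNPs by 0.12 ± 0.04 (adjusted p = 0.0225), a call that ended without any single AgNPs or COM library, with DESeq2 and with no filter (adjusted p up to 0.168). COM lay above DOC by 0.32 ± 0.04 (adjusted p = 1.31e-08). The transcript NM_006472.5 held 91.7 ± 3.48% of TXNIP counts in BLANK and 85.5 ± 3.38% in COM, and the ranges overlapped.

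ARRDC4, an arrestin-domain gene related to TXNIP and also a MondoA target (gene ID 91947, chromosome 15, 97960703 to 97973833), had the lowest level in BLANK. It was at 4.32, 3.72 and 5.01 CPM in BLANK and at 7.89, 6.24 and 7.20 CPM after AgNPs. After DOC it was at 4.37, 5.25 and 5.83 CPM, overlapping BLANK, and after COM at 9.40, 9.07 and 10.95 CPM. It rose 1.63-fold after AgNPs (log2 0.71 ± 0.14, adjusted p = 0.000113) and 2.25-fold after COM (1.17 ± 0.14, adjusted p = 3.94e-09), and was at 0.24 ± 0.14 after DOC (adjusted p = 0.237; 95% interval -0.04 to 0.52). COM lay above AgNPs by 0.46 ± 0.14 (adjusted p = 0.0122), a call that ended without AgNPs replicate 2 (0.0867) or COM replicate 3 (0.0879).

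TXNIP and ARRDC4 rose together after AgNPs and COM, and their promoters are shown because both genes are known targets of MondoA with MLX. Each run is the 250 bases before the gene's start in RefSeq on GRCh38.p14, 5′ to 3′ on the gene's strand, for TXNIP chr1:145996580-145996829 (minus strand) and for ARRDC4 chr15:97960453-97960702 (plus strand). Capitals mark matches, on either strand, to the E-box CACGTG or to a paired element made of CACGNG, any 5 bases and CACGNG again, a form of the carbohydrate response element.
TXNIP: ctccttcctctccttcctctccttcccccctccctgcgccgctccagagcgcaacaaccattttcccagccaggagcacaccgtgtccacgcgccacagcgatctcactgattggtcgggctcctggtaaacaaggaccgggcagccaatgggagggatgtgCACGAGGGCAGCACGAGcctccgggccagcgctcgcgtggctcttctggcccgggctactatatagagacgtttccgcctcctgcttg
ARRDC4: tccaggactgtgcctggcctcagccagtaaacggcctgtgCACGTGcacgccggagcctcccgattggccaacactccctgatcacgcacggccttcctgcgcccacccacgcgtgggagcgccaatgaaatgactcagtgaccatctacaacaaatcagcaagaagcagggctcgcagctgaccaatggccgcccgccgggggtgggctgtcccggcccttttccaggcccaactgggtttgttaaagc
TXNIP held the paired element at -88 to -72 and no CACGTG, and ARRDC4 held CACGTG at -210 to -205 and no paired element by these letters. The paired element can contain CACGTG, so the searches overlap. Over all 35116 promoter windows of this length in the table, 6.34% held CACGTG and 0.0456% held the paired element. Of 14 windows of 9 members, 3 held CACGTG, those of MNT, MLX and ARRDC4, and 1 held the paired element.

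ARRDC3, an arrestin-domain gene that sends receptors and integrin to degradation (gene ID 57561, chromosome 5, 91368631 to 91383317), was at 39.3, 37.8 and 36.7 CPM in BLANK. It was at 43.3, 44.1 and 41.6 CPM after AgNPs, 45.2, 46.5 and 45.1 CPM after DOC, and 61.4, 59.7 and 58.7 CPM after COM. No 2 groups overlapped, and DOC lay above AgNPs, unlike for TXNIP and ARRDC4; this difference between genes was not tested. ARRDC3 rose after AgNPs (0.18 ± 0.05, adjusted p = 0.00477), DOC (0.27 ± 0.05, adjusted p = 0.000115) and COM (0.66 ± 0.05, adjusted p = 7.9e-14). COM was above AgNPs by 0.48 ± 0.05 (adjusted p = 1.27e-08) and above DOC by 0.39 ± 0.05 (adjusted p = 3.1e-08). The gene overlaps ARRDC3-AS1, which had a mean of 95.9 counts against 739 for ARRDC3, so antisense reads could be included where strand was not used. About as many of its counts lay on the transcript NM_020801.3 in BLANK (51.3 ± 3.68%) as in COM (48.1 ± 3.45%), and the ranges overlapped.

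**Figure D3:**
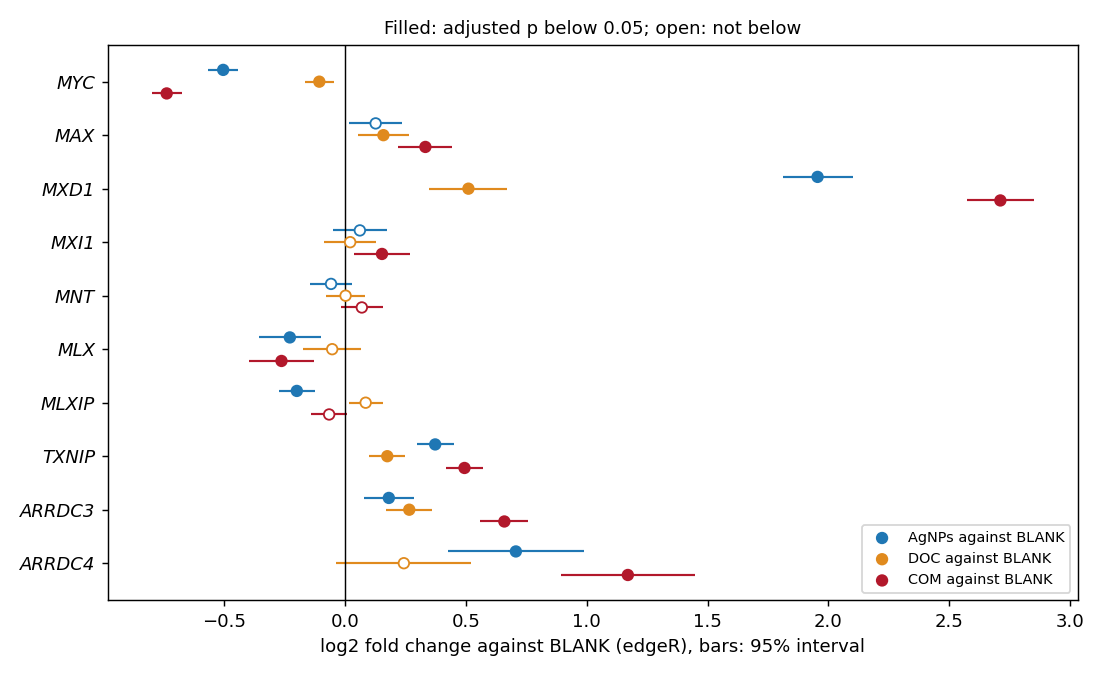
Log2 fold change of each gene against BLANK (x axis, edgeR) after AgNPs, DOC and COM, with 95% intervals as bars, filled where the adjusted p was below 0.05. MXD1 lies farthest to the right at 1.96 and 2.71 after AgNPs and COM, and MYC farthest to the left at -0.50 and -0.74.

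COM against each single treatment asks what the second agent added. Against AgNPs 7 members rose (MAX, MXD1, MNT, MLXIP, TXNIP, ARRDC3 and ARRDC4) and MYC fell, against 9.87% of all genes higher, 12% lower and 21.9% in either direction. Of these, MNT (0.13 ± 0.05, adjusted p = 0.0431) lost its call in 11 of 20 alternatives, and the number of rising members was 3 without COM replicate 2 and 4 without AgNPs replicate 2 or 3, COM replicate 1 or 3 or with no filter. MAX (0.21 ± 0.06, adjusted p = 0.0103) lost its call without AgNPs replicate 3 (0.0674), COM replicate 1 (0.0654) or COM replicate 2 (0.0947) and with limma-trend (0.0731). MYC, MXD1 and ARRDC3 kept their calls in all 20. MXI1 at 0.09 ± 0.06 (adjusted p = 0.305) and MLX at -0.03 ± 0.07 (adjusted p = 0.79) did not pass. Against DOC 5 members rose (MAX, MXD1, TXNIP, ARRDC3 and ARRDC4) and MYC, MLX and MLXIP fell, against 18.1%, 18.5% and 36.6% in either direction. There MAX (0.17 ± 0.05, adjusted p = 0.0134) lost its call without DOC replicate 1 (0.0522), COM replicate 1 (0.0722) or COM replicate 2 (0.141) and with limma-trend (0.0861), and MLX (-0.21 ± 0.07, adjusted p = 0.0132) without COM replicate 1 (0.0675). MNT at 0.07 ± 0.04 (adjusted p = 0.249) and MXI1 at 0.13 ± 0.06 (adjusted p = 0.0731) did not pass, though MXI1 did without COM replicate 1 (0.035), with RefSeq rows only (0.0427) and with limma-trend (0.0315).

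The interaction is the log2 effect of DOC in the presence of AgNPs minus that in its absence. None of the 10 members passed with edgeR, where 0.731% of all genes were higher, 0.375% lower and 1.11% either, and none passed with DESeq2. With edgeR, 4 had an unadjusted p below 0.05. These were MYC at -0.13 ± 0.04 (adjusted p = 0.185, unadjusted p = 0.00491), MXD1 at 0.25 ± 0.10 (adjusted p = 0.341), MNT at 0.12 ± 0.06 (adjusted p = 0.491) and ARRDC3 at 0.21 ± 0.07 (adjusted p = 0.183). For TXNIP the 95% interval of the interaction ran from -0.16 to 0.05 and for ARRDC4 from -0.17 to 0.61. The interaction was 0.05 ± 0.08 for MAX, 0.07 ± 0.08 for MXI1, 0.02 ± 0.09 for MLX and 0.05 ± 0.05 for MLXIP.

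Genes that MYC is known to activate fell together. In a list of 32 genes of ribosome biogenesis and growth, 31 fell after AgNPs, 24 after DOC and 32 after COM, and none rose. The medians were -0.30, -0.15 and -0.51, against 0.01, 0.00 and 0.03 for all genes, of which 16%, 9.81% and 24.5% were lower. BYSL, named because it was the exception, was at -0.08 ± 0.06 after AgNPs (adjusted p = 0.35). CAD, which starts pyrimidine synthesis, was at 331 ± 2.53 CPM in BLANK and 210.1 ± 1.57 CPM in COM (log2 -0.65 ± 0.03, adjusted p = 3.37e-20). RRS1, a ribosome assembly factor, was at -0.48 ± 0.05, -0.43 ± 0.05 and -0.97 ± 0.05 after AgNPs, DOC and COM and passed in each. MYBBP1A, a nucleolar protein, fell to -0.73 ± 0.03 in COM and TCOF1, which serves ribosomal RNA transcription, to -0.61 ± 0.04. With limma-trend 13 of the 32 fell after DOC, and 18 to 24 fell with a library left out. The list was chosen with earlier results of these data known, so its counts are a description. Whether the fall of MYC caused these changes was not tested.

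Genes that MYC is known to repress together with MIZ1 rose. Of 6, 5 rose after AgNPs, 3 after DOC and 6 after COM, and none fell, against 14.9%, 7.16% and 25.1% of all genes higher. The list medians were 0.81, 0.21 and 1.05. CDKN1A, the inhibitor of cyclin-dependent kinases also called p21, was at 9.08 ± 0.549 CPM in BLANK, 38.3 ± 1.49 after AgNPs, 13.2 ± 1.84 after DOC and 71.1 ± 1.57 CPM after COM, so its COM change was 2.97 ± 0.07. CDKN2B, which encodes the inhibitor p15, rose by 0.91 ± 0.06, 0.45 ± 0.06 and 1.27 ± 0.06 in the same order. NDRG1, a stress gene, rose by 0.72 ± 0.03, 0.40 ± 0.03 and 1.24 ± 0.03. GADD45A rose after AgNPs (0.35 ± 0.05) and COM (0.41 ± 0.05) and was at -0.08 ± 0.05 after DOC (adjusted p = 0.236). Many regulators other than MYC act on these genes, and this list too was chosen with earlier results of these data known.

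**Figure D4:**
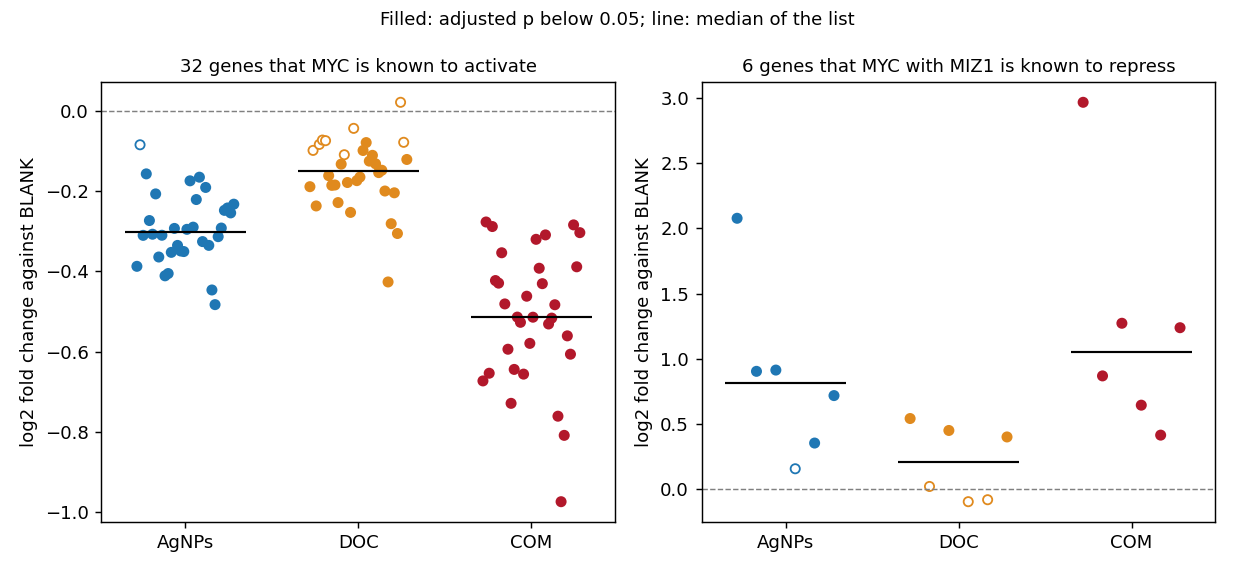
Log2 fold change against BLANK (y axis) of 32 genes that MYC is known to activate (left) and 6 that MYC with MIZ1 is known to repress (right), with 1 point per gene, filled where the adjusted p was below 0.05, and the list median as a line. After COM the medians are -0.51 and 1.05.

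Of 4 other genes that respond to glucose through MondoA (HK2, PFKFB3, LDHA and KLF10), 0 rose and 2 fell after AgNPs, 0 and 1 after DOC, and 1 and 2 after COM. The shares of all genes higher and lower were 14.9% and 16%, 7.16% and 9.81%, and 25.1% and 24.5% in the same order. The gene that rose was PFKFB3, which makes a glycolysis activator (0.27 ± 0.05, adjusted p = 1.37e-05). The glycolytic genes LDHA and HK2 fell after AgNPs (-0.15 ± 0.02 and -0.08 ± 0.03) and COM (-0.18 ± 0.02 and -0.12 ± 0.03). After DOC HK2 fell (-0.15 ± 0.03, adjusted p = 0.001) and LDHA was at -0.06 ± 0.02 (adjusted p = 0.105). The count of 2 lower after AgNPs was 1 under the replicate block, with RefSeq rows only, with limma-trend and without any of BLANK replicates 2 and 3, AgNPs replicates 1 to 3 and COM replicates 1 and 3. KLF10 was at 0.00 ± 0.04 after COM (adjusted p = 0.992). These genes also answer to hypoxia, growth factors and MYC.

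Among partners of the arrestin-domain proteins, TXN, the thioredoxin that TXNIP binds, rose after AgNPs (0.29 ± 0.04, adjusted p = 2.44e-07) and COM (0.30 ± 0.04, adjusted p = 7.18e-08) and was at -0.05 ± 0.04 after DOC. SLC2A1, the glucose transporter GLUT1, was at 102 ± 3.36, 108 ± 1.45, 104 ± 5.32 and 146 ± 3.87 CPM in BLANK, AgNPs, DOC and COM, and passed only after COM (0.51 ± 0.04, adjusted p = 1e-13). SLC2A4, the insulin-responsive transporter GLUT4, was low and fell after COM (1.34 ± 0.198 to 0.756 ± 0.275 CPM, adjusted p = 0.0439), a call that ended without BLANK replicate 1 or 2 or COM replicate 1 or 3, with RefSeq rows only, with limma-trend and with DESeq2. TXN2, the mitochondrial thioredoxin, did not pass in any of the 3 comparisons. Of 5 ubiquitin ligases that bind alpha-arrestins, 2 rose and 2 fell after both AgNPs and COM, with NEDD4L at 0.27 ± 0.04 and 0.42 ± 0.04 and WWP1 at -0.20 ± 0.04 and -0.29 ± 0.04. Of 5 other arrestin-domain genes, ARRDC2 rose after AgNPs (0.23 ± 0.05), and the beta-arrestins ARRB1 and ARRB2 fell after AgNPs (-0.26 ± 0.05 and -0.36 ± 0.07) and COM (-0.29 ± 0.06 and -0.20 ± 0.07). Among all genes tested, 14.9% were higher and 16% lower after AgNPs, and 25.1% and 24.5% after COM.

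Cofactors of MYC and MXD proteins and turnover genes of MYC that passed were mostly lower, and their counts after DOC depended on single libraries. The cofactor list holds corepressors of the MXD side, such as SIN3A and SIN3B, as well as cofactors of MYC. Of 14 cofactors, 1 rose and 5 fell after AgNPs, 0 and 5 after DOC, and 2 and 7 after COM, against 14.9% and 16%, 7.16% and 9.81%, and 25.1% and 24.5% of all genes. The number lower was 2 after DOC without BLANK replicate 1 or DOC replicate 2 and with limma-trend, and 3 after AgNPs without AgNPs replicate 1 and with limma-trend. The number higher after COM was 1 without COM replicate 2 or with no filter, and 4 with RefSeq rows only. RUVBL1, a helicase-like cofactor of MYC, was at -0.63 ± 0.05 after COM and WDR5, which helps MYC to bind chromatin, at -0.47 ± 0.04, while the MXD corepressor SIN3A, named for its role after values were seen, was at 0.16 ± 0.04. Of 12 genes that control MYC protein stability, 1 rose and 7 fell after AgNPs, 1 and 5 after DOC, and 3 and 8 after COM, against the same shares. The number lower after DOC was 2 without BLANK replicate 1 or 3, 3 without DOC replicate 2 or 3 or with those groups alone, and 1 with limma-trend. The number higher after DOC was 0 without BLANK replicate 3 or DOC replicate 2 or 3 and under 3 other settings. The number higher after COM was 1 without BLANK replicate 3 or COM replicate 1 or 3, with no filter and with DESeq2. SKP2, a ubiquitin ligase subunit, fell by 0.72 after COM on the log2 scale, AURKA, a mitotic kinase that stabilises MYC family proteins, was at -0.60 ± 0.04, and GSK3B, the kinase that marks MYC for degradation, named for its role after values were seen, was at 0.29 ± 0.04. FBXW7, the ligase subunit that then binds MYC, named on the same ground, was at 0.04 ± 0.06 (adjusted p = 0.585). STUB1 and HUWE1, in the same list and also named after values were seen, were lower in COM than in BLANK. STUB1 went from 112 ± 3.52 to 72.1 ± 1.97 CPM and HUWE1 from 809 ± 10.1 to 697 ± 17.2 CPM. Whether these genes together change MYC turnover was not tested.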

How the data were processed

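Per the submitters' processing notes, HISAT2, Bowtie2 2.2.5, RSEM and the build GRCh38 were used, with no roles given. TRIzol extraction and a BGI mRNA library kit were used, per the labels' protocols. The authors deposited expected counts per transcript row, not normalised, and FPKM, a unit inferred from the numbers, since no header states it. The circular RNA rows and 10 columns of group means were not used. Expected counts of linear rows were summed by gene and rounded, giving 43613 genes, 27206 with a symbol from RefSeq GRCh38.p14. A floor of 3 counts was 0.132 to 0.273 CPM per library (counting error alone).

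Differential expression used edgeR 4.0.16 under R 4.3.3 (TMM factors, filterByExpr, 1 robust quasi-likelihood fit over 12 libraries, two-sided, adjusted over 19986 genes; common biological coefficient of variation 0.0334). The fit was also run on simulated counts with few changed genes, all in AgNPs. That setting does not check it for the broader changes here. CPM uses TMM library sizes, and ± is SD for levels and SE for log2 changes. Alternatives were DESeq2 1.42.0, RLE factors, other filters, limma-trend (3.58.1) on log2(FPKM + 1), RefSeq rows only, the compared groups alone, a replicate block and each library left out. The members and lists were chosen with earlier results of these data known. All 10 members are named in each comparison, and of each list up to 4 genes with the smallest adjusted p against BLANK, with exceptions stated in the text.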

Additional observations from a re-analysis of the deposited data

Results flagged for a closer look

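The effect of DOC with AgNPs differed from its effect without AgNPs, by the edgeR interaction test, for 3 genes of the lists and for none of the 10 members. SLC2A1 had an interaction of 0.39 ± 0.05 (log2 ± SE, 3 libraries per group, adjusted p = 2.96e-05), since DOC changed it by 0.03 ± 0.04 alone and by 0.43 ± 0.04 with AgNPs. SKP2 had one of -0.24 ± 0.06 (adjusted p = 0.0334), with DOC effects of -0.14 ± 0.04 alone and -0.37 ± 0.05 with AgNPs. The SKP2 call ended with limma-trend, with DESeq2 and without any single library other than BLANK replicate 1, AgNPs replicate 2 or DOC replicate 1. HOXB13, a prostate lineage factor, had one of -0.25 ± 0.04 (adjusted p = 0.000497), with DOC effects of -0.29 ± 0.03 alone and -0.54 ± 0.03 with AgNPs.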

How the results depend on the processing

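No called log2 change of a member changed sign under the 20 alternatives (19 for the interaction). MYC, MXD1 and TXNIP kept their calls against BLANK after AgNPs and COM in all of them, as did ARRDC3 and ARRDC4. MXD1 after COM ranged from 2.15 to 2.76 and after AgNPs from 1.45 to 1.999 (log2), lowest with limma-trend on FPKM, where the pseudocount shrinks low genes by construction. In all, 51 member results lost and 13 gained a call. Members lower after DOC went from 1 to 0 with RefSeq rows only and with limma-trend, and were 0 to 1 with a library left out (0 without BLANK replicate 1 or 3 or DOC replicate 2). Members higher in COM against AgNPs went from 7 to 4 with no filter, and were 3 to 7 with a library left out. Over all genes, DOC raised 1430 (839 with RefSeq rows only, 509 with limma-trend, 700 with DESeq2, 913 to 1720 with a library left out) and lowered 1961 (552 with limma-trend, 1221 to 2307). COM against AgNPs raised 1973 (1279 with DESeq2). The interaction was higher in 146 (31 with limma-trend, 74 to 161) and lower in 75 (142 with no filter, 48 with RefSeq rows only, 23 with limma-trend, 44 with DESeq2, 39 to 105). The cause was not tested. Libraries of the same number did not deviate together (correlations from -0.11 to 0.05). These correlations gave no sign of pairing by number. They cannot exclude it, because deviations from means of 3 libraries also hold counting noise. A replicate block ended 1 member call, MNT in COM against AgNPs (0.13, adjusted p = 0.0531), leaving 6 members higher there. It also moved the list of other MondoA targets from 2 to 1 lower after AgNPs and from 0 to 1 higher in the interaction.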

Other observations

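As a description with no test, the genes most like MYC, TXNIP and MXD1 over the 12 libraries were ranked by Pearson's r of log2 CPM among 10072 genes. The libraries fall into 4 separate groups, so these values say little about likeness within a group. Nearest to MYC were PSRC1 (r = 0.995), MKI67, a marker of dividing cells (0.993), CIT, a kinase of cytokinesis (0.993), NTSR1 (0.992) and DCAF4 (0.992). Nearest to TXNIP were ATF3, a stress transcription factor (r = 0.987), KLHL24 (0.986), NCOA3, a nuclear receptor coactivator (0.985), SESN3, a sestrin (0.985) and GPATCH2L (0.984). MXD1 was added after its values were seen, and its nearest genes were ARHGEF2 (r = 0.997), PNRC1 (0.997), ABHD4 (0.996), NFE2L2, which encodes the antioxidant regulator NRF2 (0.996), and KDM5B, a histone demethylase (0.996).

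The paired element found upstream of TXNIP (CACGNG, any 5 bases, CACGNG) occurred in 16 promoter windows, each of a different gene, and 13 of these genes were tested. After AgNPs 6 were higher, 3 lower and 4 did not pass, after DOC 1, 1 and 11, and after COM 6, 4 and 3. TXNIP itself is among the 13 and among the higher genes in each comparison, and after DOC it was the only gene higher. The shares of all genes higher and lower were 14.9% and 16% after AgNPs, 7.16% and 9.81% after DOC, and 25.1% and 24.5% after COM. GFPT1, the first enzyme of hexosamine synthesis, named after its values were seen, was at 0.64 ± 0.05 (adjusted p = 4.67e-13) after AgNPs, 0.10 ± 0.05 (adjusted p = 0.145) after DOC and 0.89 ± 0.05 (adjusted p = 3.28e-17) after COM. RAN, a nuclear transport GTPase with the same element, also named after its values were seen, fell after each treatment, at -0.15 ± 0.03, -0.09 ± 0.02 and -0.23 ± 0.03.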
